A study of Mus musculus with 15 samples.

Results

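The BCL2 family decides whether a cell opens its mitochondria and dies by apoptosis, and 10 of its genes were followed here in mouse macrophages exposed to silica nanoparticles. The genes were taken by symbol from the 57186 genes of the deposited count table: the 5 BH3-only genes Bmf, Bcl2l11, Bbc3, Pmaip1 and Bid, and the 5 anti-apoptotic genes Bcl2, Bcl2l1, Mcl1, Bcl2a1b and Bcl2a1d. All 10 passed the filter on low counts and were among the 19839 genes tested. The cells were RAW 264.7, a macrophage line from a mouse tumor induced by a leukemia virus. They were exposed for 6 h to nonporous spheres of a nominal 100 nm (SNP100, 50 µg/mL), nonporous spheres of a nominal 50 nm (SNP50, 25 µg/mL), mesoporous spheres of 100 nm (MSNP, 200 µg/mL) or hollow mesoporous spheres of 100 nm (HMSNP, 200 µg/mL), and nontreated controls (Control) received no particle. Each of the 5 groups had 3 RNA-seq libraries, 15 in all, with total counts between 29369934 and 42617812. The dose differed between particles except for MSNP and HMSNP, and the library names carry a different number prefix for each group. What the prefix marks is not given in the sources used here, so whatever it marks and treatment cannot be told apart.

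BH3-only proteins are the sensors of the pathway. They bind into a groove of the anti-apoptotic proteins or act directly on the pore formers BAX and BAK, and so set off release of cytochrome c and activation of caspases. Anti-apoptotic members such as BCL2, BCL-XL and MCL1 hold both groups in check, and the balance between the classes, kept by transcription, protein turnover and phosphorylation, sets how readily a macrophage dies. These were mRNA measurements, and no cell death was measured in these files.

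The 10 macrophage markers examined, among them Lyz2, Csf1r and Cd68, were present in every library, with a summed level between 13490 and 14450 counts per 1000000 reads (CPM) in the MSNP-treated group and between 15870 and 20480 CPM in the other 4 groups, and the part of this lower sum in the results was not tested. Under MSNP 7 of the 10 markers passed the edgeR test against controls, where 22.8% of all genes tested did (11.8% higher and 11% lower). Of these, 6 were lower (Cd14, Csf1r, Fcgr1, Itgam, Lyz2 and Mertk) and Cd68 was higher. The median log2 fold change of the 10 markers was -0.42, against -0.05 over all genes tested. For each other particle 0 of 10 passed, where 0.912% (SNP100), 1.41% (SNP50) and 5.16% (HMSNP) of all genes did. Of 17 markers of other cell types, 7 had no count in any library (Col1a2, Col3a1, Epcam, Krt18, Ly6g, Ms4a1 and S100a9), and their summed level lay between 1.85 and 3.67 CPM in every group. Control replicate 3 stood apart from its group across 10652 genes ordered by exonic length, which merges all annotated exons of a gene. Its median log2 difference from the other 2 controls ran from 0.61 in the shortest decile to -0.60 in the longest. Results against nontreated controls are therefore also given without replicate 3, and how far the length trend enters each gene was not tested. The other 2 controls were not alike either. The same measure ran from -0.38 to 0.42 for Control replicate 2 and from -0.23 to 0.16 for Control replicate 1. A mean chi-square per gene between the counts of 2 replicates was 66.17 for Control replicates 1 and 2. It was at most 13.94 for any pair within a treated group. In bulk RNA, fewer cells of a kind and less RNA per cell cannot be told apart.

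Sequences of the genes that the results turn on are shown first. For Bmf, the member that changed in every comparison with nontreated controls, and for Bcl2l11 and Mcl1, 2 members that differed between MSNP and HMSNP and hold a searched motif, these are the 300 bases just upstream of the canonical transcript start in GRCm39: chr2:118380178-118380477 on the minus strand for Bmf, chr2:127967658-127967957 on the plus strand for Bcl2l11, and chr3:95565726-95566025 on the plus strand for Mcl1. Capitals mark a FOXO motif (GTAAACA) and a GC box (GGGGCGGGG) for Bcl2l11, and an NF-kB motif (GGG, 2 bases of any kind and TTTCC, on the opposite strand) for Mcl1.
Bmf: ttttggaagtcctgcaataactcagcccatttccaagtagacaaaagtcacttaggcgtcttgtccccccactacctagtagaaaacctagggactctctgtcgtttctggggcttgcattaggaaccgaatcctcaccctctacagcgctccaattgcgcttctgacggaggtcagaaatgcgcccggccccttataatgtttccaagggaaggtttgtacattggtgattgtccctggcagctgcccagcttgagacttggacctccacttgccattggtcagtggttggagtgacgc
Bcl2l11: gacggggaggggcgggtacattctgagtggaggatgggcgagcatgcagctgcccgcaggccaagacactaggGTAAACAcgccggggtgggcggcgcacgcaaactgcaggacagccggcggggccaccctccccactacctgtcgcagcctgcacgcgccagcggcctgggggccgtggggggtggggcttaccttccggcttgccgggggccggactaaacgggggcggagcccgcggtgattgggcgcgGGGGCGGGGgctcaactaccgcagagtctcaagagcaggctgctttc
Mcl1: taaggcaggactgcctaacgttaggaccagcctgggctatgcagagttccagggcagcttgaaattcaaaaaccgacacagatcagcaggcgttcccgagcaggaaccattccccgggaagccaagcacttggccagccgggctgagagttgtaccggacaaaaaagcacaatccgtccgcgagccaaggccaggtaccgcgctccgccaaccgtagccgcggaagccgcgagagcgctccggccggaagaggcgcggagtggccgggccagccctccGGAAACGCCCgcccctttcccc

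Both strands of the windows of all 10 members were searched for 7 motifs. The FOXO motif lay at bases -227 to -221 before the Bcl2l11 start and in 3.43% of 21770 windows of the same length genome-wide. The NF-kB motif lay at bases -22 to -13 before the Mcl1 start and in 1.7% of all windows. A GC box was found for Bcl2l11, Pmaip1 and Bcl2, and in 11.9% of all windows. The E-box CACGTG (6.95% of all windows), the AP-1 motif TGACTCA (4.74%), the cAMP response element TGACGTCA (1.75%) and the ATF4-CHOP composite motif TGATGNAAN (4.05%) were in none of the 10 windows, and the Bmf window held none of the 7 motifs. These are matches of letters and not sites of binding.

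Bmf (ENSMUSG00000040093, chr2:118359238-118380177, minus strand), which encodes a BH3-only protein tethered to the myosin V motor through dynein light chain, was lower than in nontreated controls in all 4 treated groups. The control libraries held 29.4, 31.5 and 26.3 CPM. The SNP100-treated libraries held 19.8, 20.6 and 18.8 CPM and the SNP50-treated libraries 16.3, 21.1 and 20.0 CPM. HMSNP-treated libraries held 11.4, 13.8 and 13.9 CPM, and MSNP-treated libraries 1.42, 1.78 and 1.75 CPM. No treated library reached the lowest control library, and the 3 MSNP-treated libraries lay far below every other library.

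The mean of Bmf was 29.1 CPM ± 2.58 (SD, n = 3) in nontreated controls and 1.65 ± 0.199 (SD, n = 3) in the MSNP-treated group, a 17.5-fold lower level (log2 fold change -4.13, SE 0.14, edgeR adjusted p = 2.29e-11). The 3 MSNP-treated libraries still held 168 Bmf reads in all, against 3067 in the controls. Bmf fell 2.23-fold in the HMSNP-treated group (log2 fold change -1.16, SE 0.11, adjusted p = 1.71e-05). The falls under nonporous particles were smaller, 1.48-fold for SNP100 (-0.56, SE 0.11, adjusted p = 0.0241) and 1.52-fold for SNP50 (-0.60, SE 0.11, adjusted p = 0.013). In these smaller contrasts the call depended on the samples in the model: fitted on the 6 libraries of the comparison alone, the adjusted p was 0.48 for SNP100 and 0.498 for SNP50, and without Control replicate 1 it was 0.1 (-0.53) and 0.0563 (-0.58). For SNP100 the call was also lost without any 1 SNP100 library (adjusted p = 0.108 to 0.13) and without MSNP replicate 2 or 3 (0.0593 and 0.0587), and for SNP50 without SNP50 replicate 1 or 3 (0.1 and 0.0547).

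The groups ordered by Bmf level were Control, SNP100, SNP50, HMSNP and MSNP. SNP100 and SNP50 were neighbours that did not differ beyond their spread (log2 difference -0.04, adjusted p = 0.943). HMSNP was below SNP50 (-0.55, SE 0.11, adjusted p = 0.00721, a contrast added after the data were seen, in which 8.87% of all genes passed) and below SNP100 (-0.60, adjusted p = 0.0052, and 0.0522 without HMSNP replicate 1). MSNP was 7.85-fold below HMSNP at the same dose (log2 difference of HMSNP minus MSNP 2.97, SE 0.14, adjusted p = 5.47e-10). Among the 19839 genes ordered by p-value, Bmf stood at place 16 for MSNP, 49 for HMSNP, 113 for SNP100 and 105 for SNP50. The comparisons with Control share the same control libraries.

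**Figure D1:**
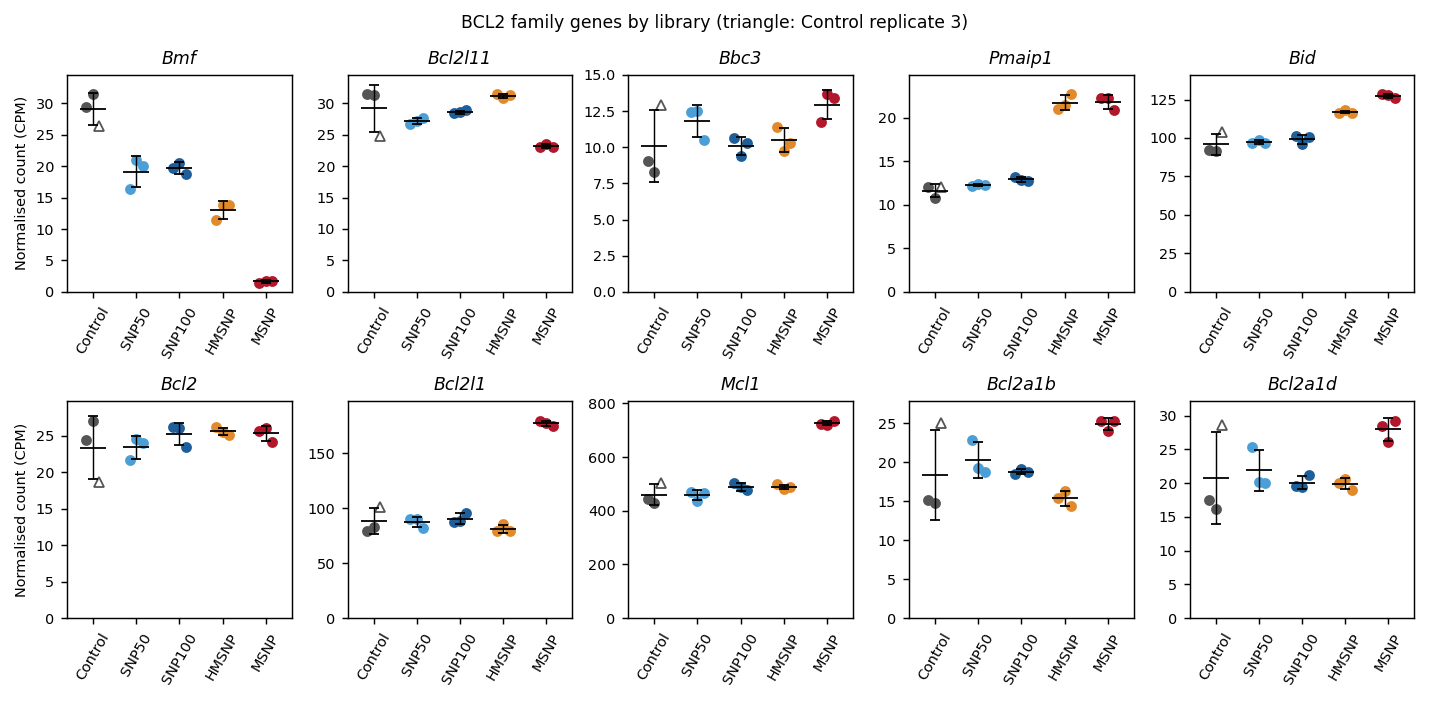
Normalised counts (CPM, linear axis from 0) of the 10 BCL2 family genes in each of the 15 libraries, by group, with the mean and SD of 3 libraries as a bar and Control replicate 3 as an open triangle. Bmf steps down from 29.1 CPM in nontreated controls to 1.65 in the MSNP-treated group, Pmaip1 is high under both mesoporous particles, and Bcl2l1 and Mcl1 are high under MSNP.

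Bcl2l11 (BIM, ENSMUSG00000027381, chr2:127967958-128004476, plus strand) binds every anti-apoptotic member and, like BMF, a dynein light chain. Control libraries held 31.4, 31.3 and 24.8 CPM, MSNP-treated libraries 23.0, 23.5 and 23.0 CPM, and HMSNP-treated libraries 31.4, 30.8 and 31.3 CPM. The MSNP-treated libraries were the lowest of the 15, while HMSNP matched the higher controls. Bcl2l11 fell under MSNP by 0.33 on the log2 scale (SE 0.08, adjusted p = 0.00667), a call lost in the fit on 6 libraries (adjusted p = 0.129), without Control replicate 1 (-0.25, adjusted p = 0.0616) and without MSNP replicate 1 (-0.31, adjusted p = 0.0529). Against SNP100, which held between 28.4 and 28.9 CPM, the difference for MSNP was -0.30 (adjusted p = 0.0146), and between 0.0565 and 0.0813 without SNP100 replicate 1 or any 1 MSNP library. SNP50 held between 26.7 and 27.6 CPM and did not pass the test against controls (-0.10, adjusted p = 0.693) unless Control replicate 3 was left out (-0.21, adjusted p = 0.00499).

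Pmaip1 (NOXA, ENSMUSG00000024521, chr18:66591604-66598636, plus strand), a BH3-only protein that binds MCL1 and promotes its degradation, rose under both mesoporous particles. The control libraries held 12.1, 10.8 and 12 CPM. MSNP-treated libraries held 22.3, 22.2 and 20.9 CPM and HMSNP-treated libraries 21.0, 21.4 and 22.7 CPM, all above every other library. The increase was 1.88-fold for MSNP (log2 fold change 0.91, SE 0.07, adjusted p = 1.04e-07) and 1.87-fold for HMSNP (0.90, SE 0.07, adjusted p = 1.56e-06). HMSNP and MSNP were not told apart (log2 difference -0.01, 95% interval -0.15 to 0.14, adjusted p = 0.963). Libraries of SNP100 held 12.8 to 13.2 CPM and of SNP50 12.2 to 12.4 CPM, above all controls in each case but by little (0.16 and 0.08, adjusted p = 0.449 and 0.723).

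Bid (ENSMUSG00000004446, chr6:120862525-120894171, minus strand) is cleaved by caspase-8 and links death receptors to mitochondria. It was the most abundant BH3-only mRNA per length, at 43.5 CPM per kb of canonical transcript in controls against 6.25 for Bmf, 5.78 for Bcl2l11, 4.25 for Pmaip1 and 3.75 for Bbc3. Control libraries held 91.9, 91.7 and 104 CPM, MSNP-treated libraries 128, 128 and 126 CPM and HMSNP-treated libraries 117, 118 and 116 CPM, with no overlap of either treated group with the controls. The increase was 1.33-fold under MSNP (0.41, SE 0.06, adjusted p = 0.000118). Under HMSNP it was 1.22-fold (0.29, SE 0.06, adjusted p = 0.0126). This call was lost in the fit on 6 libraries (adjusted p = 0.374), with an offset for exonic length (0.15, adjusted p = 0.319) and without HMSNP replicate 2 (0.28, adjusted p = 0.0567). The exonic length of Bid that the offset used was 9796 bases, against 2202 in its canonical transcript. Exons of Bid share 3059 bases with those of Bcl2l13 on the opposite strand, and the strand setting of the counting is not given in the sources used here, so reads of the pair may be mixed.

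Bbc3 (PUMA, ENSMUSG00000002083, chr7:16042318-16052130, plus strand), a p53 target, passed the test in no comparison. Controls held 9.01, 8.27 and 12.9 CPM, with replicate 3 the highest, and MSNP-treated libraries 11.8, 13.7 and 13.4 CPM. The difference for MSNP was 0.36 (95% interval 0.06 to 0.66, adjusted p = 0.083), and it passed without Control replicate 3 (0.59, adjusted p = 0.000141).

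The anti-apoptotic genes split into a pair that rose under MSNP, a pair that differed only between the mesoporous particles in the 15-library fit, and Bcl2. Bcl2l1 (BCL-XL, ENSMUSG00000007659, chr2:152622582-152673655, minus strand) held 79.5, 83.4 and 102 CPM in controls and 180, 177 and 175 CPM in MSNP-treated libraries. The increase was 2.01-fold (log2 fold change 1.01, SE 0.09, adjusted p = 3.81e-07). HMSNP-treated libraries held 79.0, 85.6 and 79.2 CPM, within the range of the controls or just under it (-0.12, adjusted p = 0.412), and HMSNP was 2.18-fold below MSNP (-1.13, SE 0.09, adjusted p = 1.32e-07). The nonporous groups lay between 82.0 and 96.1 CPM, inside the control range.

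Mcl1 (ENSMUSG00000038612, chr3:95566026-95570487, plus strand), whose short-lived protein is the partner of NOXA, was the most abundant member in every group, at 132 CPM per kb of canonical transcript in controls. Control libraries held 446, 430 and 505 CPM, MSNP-treated libraries 722, 721 and 736 CPM, and HMSNP-treated libraries 498, 481 and 488 CPM. MSNP stood above all other libraries. The increase was 1.58-fold (0.66, SE 0.06, adjusted p = 1.72e-06), and HMSNP was 1.49-fold below MSNP (-0.57, SE 0.06, adjusted p = 8.57e-06). HMSNP did not pass against controls (0.09, 95% interval -0.05 to 0.23, adjusted p = 0.411), but did so without Control replicate 3 (0.16, adjusted p = 0.0281) and with the offset for exonic length (0.20, adjusted p = 0.0193).

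Bcl2a1b and Bcl2a1d are near-identical mouse copies of the A1 gene, an NF-kB target in macrophages. Their coding sequences of 516 bases differ at 6 positions (98.84% identity), and Bcl2a1a differs from them at 11 and 7. The first 60 coding bases show how little separates the copies, with the differing bases in capitals.
Bcl2a1b: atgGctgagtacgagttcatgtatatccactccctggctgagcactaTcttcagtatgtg
Bcl2a1d: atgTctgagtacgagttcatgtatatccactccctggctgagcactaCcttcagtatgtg

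Of the stretches of 150 bases, the read length, 14.3% in the Bcl2a1b transcript and 30.5% in the Bcl2a1d transcript occur unchanged in another copy, so the split of reads between copies is uncertain. Bcl2a1b (ENSMUSG00000089929, chr9:89081262-89089889, plus strand) held 15.2, 14.8 and 25.0 CPM in controls, 25.4, 24.0 and 25.3 CPM under MSNP and 15.4, 16.3 and 14.4 CPM under HMSNP. Bcl2a1d (ENSMUSG00000099974, chr9:88605338-88613967, minus strand) held 17.5, 16.1 and 28.6 CPM in controls, 28.5, 26.1 and 29.3 CPM under MSNP and 20.0, 20.6 and 19.0 CPM under HMSNP. For both copies Control replicate 3 was at the level of the MSNP-treated libraries and the other 2 controls were far below.

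Neither copy passed the test for MSNP against controls (Bcl2a1b 0.44, adjusted p = 0.0555, and Bcl2a1d 0.43, adjusted p = 0.0774), and both did without Control replicate 3 (0.74, adjusted p = 5.46e-07, and 0.74, adjusted p = 2.99e-06). HMSNP was below MSNP for Bcl2a1b (-0.69, SE 0.16, adjusted p = 0.0042) and for Bcl2a1d (-0.49, SE 0.16, adjusted p = 0.0493). The second of these calls was lost in 11 of the fits that left out 1 library, any MSNP or HMSNP library among them, with adjusted p from 0.0564 to 0.145. The sum of Bcl2a1a, Bcl2a1b and Bcl2a1d does not depend on how the counted reads were split between these copies. It gave 0.43 for MSNP against controls (adjusted p = 0.0677) and -0.58 for HMSNP against MSNP (adjusted p = 0.0165). If reads that match several copies were left out in counting, the sum lacks them too.

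Bcl2 (ENSMUSG00000057329, chr1:106465908-106642060, minus strand), the founding member, passed the test in no comparison. The controls held 24.4, 27.1 and 18.6 CPM, and all 12 treated libraries lay between 21.6 and 26.3 CPM, inside that range. The difference for MSNP was 0.12 (95% interval -0.12 to 0.35, adjusted p = 0.487) and for HMSNP 0.13 (-0.10 to 0.37, adjusted p = 0.465). Per length it was the least abundant member in controls, at 3.22 CPM per kb of canonical transcript. Exons of Bcl2 share 558 bases with the antisense gene D630008O14Rik and those of Bcl2l1 476 bases with the antisense gene Gm74855, while on the same strand Bcl2a1b shares 401 bases with Gm29094 and Bcl2l11 69 bases with Gm74510, so counts of these members may include or lose reads of the neighbour.

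**Figure D2:**
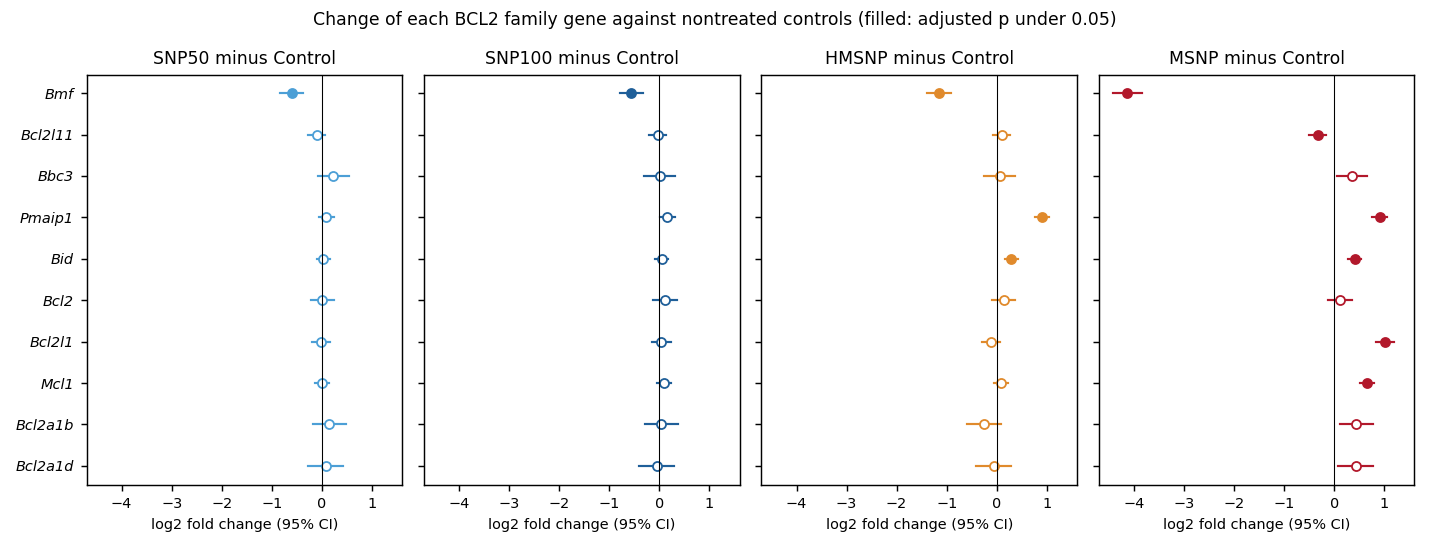
Log2 fold change of each gene against nontreated controls, with its 95% confidence interval, in 1 panel per particle; filled points passed the edgeR test at an adjusted p under 0.05. Bmf is a filled point on the low side in every panel, from -0.56 for SNP100 to -4.13 for MSNP, joined by Bcl2l11 (-0.33) for MSNP. Pmaip1 and Bid are filled on the high side for HMSNP and MSNP, and Bcl2l1 (1.01) and Mcl1 (0.66) for MSNP.

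Counted over the family, 1 of 10 members passed against controls for SNP100, where 0.912% of all tested genes did, and 1 of 10 for SNP50, where 1.41% did. Bmf was that member in both. For HMSNP 3 of 10 members passed, against 5.16% of all genes (2.46% higher and 2.7% lower), with Pmaip1 and Bid higher and Bmf lower. For MSNP 6 of 10 passed, against 22.8% of all genes (11.8% higher and 11% lower), with Bcl2l1, Pmaip1, Mcl1 and Bid higher and Bmf and Bcl2l11 lower. The median log2 fold change of the 10 members for MSNP was 0.42, against -0.05 over all genes tested, and for the other 3 particles it lay between 0.01 and 0.07. The libraries of a treated group and of controls did not overlap for 2 members under SNP100 (12.5% of all genes), 2 under SNP50 (14.1%), 3 under HMSNP (22.9%) and 6 under MSNP (33.2%). Without Control replicate 3 the members that passed were 3 for SNP100 (Bmf, Bcl2a1b and Mcl1, against 5.16% of all genes), 5 for SNP50 (Bmf, Bcl2l11, Bbc3, Bcl2a1b and Bcl2a1d, against 18.9%), 4 for HMSNP (Bmf, Pmaip1, Bid and Mcl1, against 8.66%) and 9 for MSNP (29.5%, all but Bcl2). The count of 9 for MSNP was also reached with all controls in DESeq2 (29.7% of all genes), under a stricter filter on low counts (33.1%) and with the offset for exonic length (26%). Without Control replicate 2 the same 3 members passed for HMSNP, and 25.2% of all genes then did. The members were chosen with earlier results of these data known, and all genes tested include genes with few counts. The shares are therefore given beside the counts only, and an excess of the family over all genes was not tested. With Control replicate 3 left out instead, the members that passed in the 15-library fit stood at -4.19 (Bmf), -0.43 (Bcl2l11), 0.94 (Pmaip1), 0.48 (Bid), 1.13 (Bcl2l1) and 0.74 (Mcl1) on the log2 scale for MSNP. For HMSNP they stood at -1.22 (Bmf), 0.93 (Pmaip1) and 0.35 (Bid).

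Between particles, no member passed for SNP50 against SNP100, where no gene of the 19839 did (0% of all genes) although 3 of 10 members had groups that did not overlap, against 23.9% of all genes. At an unadjusted p under 0.05, 867 genes and 0 members stood out, and DESeq2 called 1 gene of the whole table and no member. These differ in diameter and in dose. MSNP against SNP100, particles of the same nominal diameter given at different doses, gave 6 of 10 members, against 17.9% of all genes, and HMSNP against SNP100 gave 3 of 10, against 4.52%. These were the members and the directions that passed against controls: for MSNP, Bcl2l1 0.97 (adjusted p = 8.49e-07), Pmaip1 0.75 (1.09e-06), Mcl1 0.57 (1.13e-05), Bid 0.36 (0.000497), Bcl2l11 -0.30 (0.0146) and Bmf -3.57 (1.8e-10). For HMSNP they were Pmaip1 0.75 (1.19e-05), Bid 0.24 (0.0371) and Bmf -0.60 (0.0052). Of these, Bid was lost without any 1 SNP100 or HMSNP library or SNP50 replicate 2 (adjusted p = 0.055 to 0.132). It was also lost with the offset for exonic length (0.19, adjusted p = 0.295) and with the replicate number as a block (0.24, adjusted p = 0.065). Groups did not overlap for 9 of 10 members for MSNP (45.6% of all genes) and 6 of 10 for HMSNP (37.1%). Neither comparison uses the control libraries as a group, although these enter the shared estimate of spread. With Control replicate 3 left out the counts were 9 for MSNP (all but Bcl2, against 33.1% of all genes) and 6 for HMSNP (against 20.4%, with Bcl2a1b, Bcl2l1 and Bcl2l11 added), and fitted on the 6 libraries of the comparison they were also 9 (40.9%) and 6 (26.8%).

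At the same dose and nominal diameter, HMSNP against MSNP gave 6 of 10 members, against 20.2% of all genes (9.22% higher and 11% lower). Bmf and Bcl2l11 were higher in the HMSNP-treated group, and Bcl2l1, Mcl1, Bcl2a1b and Bcl2a1d were lower. The 2 BH3-only genes that were lower under MSNP than under HMSNP were thus opposite in direction to 4 of the 5 anti-apoptotic genes. Of these 4, Bcl2a1b and Bcl2a1d are near-identical copies whose reads may be mixed, so they are not separate observations. The Bcl2a1d call (adjusted p = 0.0493) was lost in 12 of 24 alternatives (adjusted p = 0.0516 to 0.145). Pmaip1 did not pass (adjusted p = 0.963), nor did Bid (-0.12, 95% interval -0.25 to 0.01, adjusted p = 0.194), Bbc3 (-0.30, adjusted p = 0.164) or Bcl2 (0.02, 95% interval -0.22 to 0.25, adjusted p = 0.951). Groups did not overlap for 8 of 10 members, against 45.3% of all genes. Without Control replicate 3, which enters here only through the shared spread, 8 members passed, against 33.9% of all genes, with Bid (-0.13, adjusted p = 0.0112) and Bbc3 (-0.32, adjusted p = 0.00787) added on the MSNP side, and on the 6 libraries of the comparison 8 passed, against 40.9%.

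**Figure D3:**
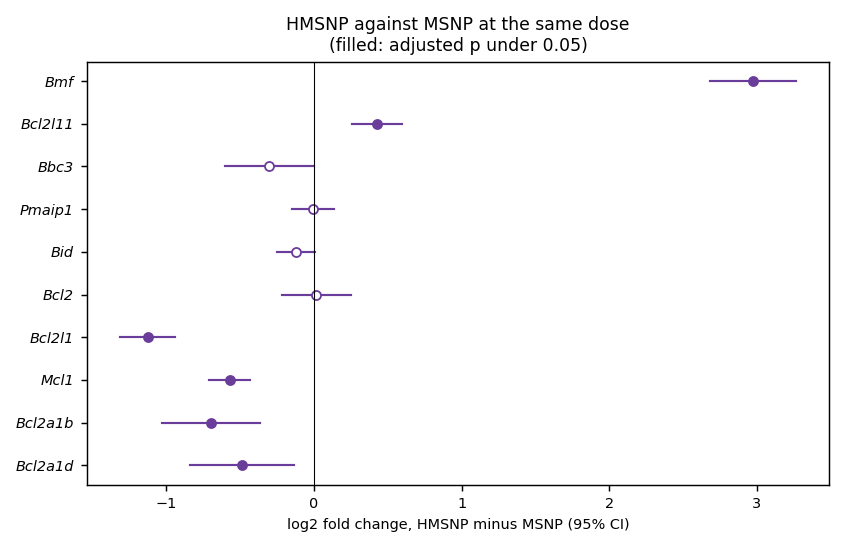
Log2 fold change of each member between HMSNP and MSNP at 200 µg/mL, with its 95% confidence interval; filled points passed the edgeR test at an adjusted p under 0.05. Bmf (2.97) and Bcl2l11 (0.43) lie on the HMSNP side and Bcl2l1 (-1.13), Mcl1, Bcl2a1b and Bcl2a1d on the MSNP side.

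Of 16 further BCL2 family genes, 13 had enough counts to test, and 3 of them passed under MSNP, where 22.8% of all genes did. The pore formers themselves did not pass in the 15-library fit: for MSNP against controls Bak1 was at 0.01 (adjusted p = 0.949) and Bax at 0.04 (adjusted p = 0.878), with Bax at 221 CPM ± 79.3 (SD, n = 3) in controls, where replicate 3 was the highest. In other fits Bak1 passed as higher under HMSNP: with DESeq2, a stricter filter, the length offset and without Control replicate 3. Bax passed as higher under SNP100, SNP50 and MSNP without Control replicate 3, and under MSNP with the length offset. Without Control replicate 2, Bax passed as lower under HMSNP. Bcl2l2 (BCL-W), a further anti-apoptotic gene, rose under MSNP from 26.8 CPM ± 0.493 to 36.3 ± 0.883 (SD, n = 3 each, log2 fold change 0.44, adjusted p = 0.000213). Bnip3l (NIX), a mitophagy receptor, rose from 59.95 CPM ± 3.25 to 78.6 ± 4.76 (0.39, adjusted p = 0.000651). Its relative Bnip3 passed as lower under SNP50 (-0.46, adjusted p = 0.0239), a call lost in 5 of 23 alternatives (adjusted p = 0.0539 to 0.588), among them the fit on 6 libraries, the replicate block and the fits without any 1 SNP50 library. Bcl2l15 had 4 reads in the MSNP-treated group and 22 in controls, a ratio of control to MSNP of 5.25 (95% interval for counting error 1.78 to 20.96). For HMSNP and SNP100 no gene of this group passed with edgeR. At an unadjusted p under 0.05 there were 5 and 2, where 4771 and 2085 of all 19839 genes stood out. With DESeq2 there were 2 and 0, against 15.1% and 3.96% of all genes. Without Control replicate 3 the numbers were 1 gene for SNP100 (5.16% of all genes), 3 for SNP50 (18.9%), 5 for MSNP (29.5%) and 1 for HMSNP (8.66%).

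Downstream, 30 of 31 genes of caspases, death receptors, their adaptors and inhibitors were tested. Under MSNP 4 rose and 8 fell, where 22.8% of all genes passed, and 4 of 29 passed in the fit on 6 libraries, where 13% of all genes did. Fadd and Casp6 below were not among those 4 (adjusted p = 0.052 and 0.0516). Cflar, which encodes the caspase-8 inhibitor FLIP, rose from 57.3 CPM ± 17.7 to 125 ± 4.88 (SD, n = 3 each, 1.12, adjusted p = 0.000105). Fadd, the death receptor adaptor, rose by 0.48 (adjusted p = 0.00142). The death receptor gene Fas fell from 3.66 CPM ± 0.571 to 1.08 ± 0.127 (log2 fold change -1.77, adjusted p = 6.83e-07). Among caspase genes, Casp2 (-0.61, adjusted p = 5.98e-05) and Casp6 (-0.52, adjusted p = 0.00113) fell, whereas Casp9 (0.12, adjusted p = 0.296) and its activator Apaf1 (0.24, adjusted p = 0.319) did not pass.

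Under HMSNP 2 of these 30 genes passed and none was lower, a share near the 5.16% of all genes: the TRAIL receptor gene Tnfrsf10b rose from 5.05 CPM ± 0.0952 to 8.81 ± 0.773 (SD, n = 3 each, 0.80, adjusted p = 6.49e-05) and Birc3 (cIAP2) was higher by 0.38 (adjusted p = 0.0377). The Birc3 call was lost in 15 of 23 alternatives (adjusted p = 0.0503 to 0.409) and that of Tnfrsf10b in the fit on 6 libraries (adjusted p = 0.0537). Birc3 fell under MSNP (-0.42, adjusted p = 0.00583, and 0.106 in the fit on 6 libraries), and the difference between the particles passed (0.80, adjusted p = 2.18e-05). For SNP100 and SNP50 0 of 30 passed with edgeR. At an unadjusted p under 0.05 there were 6 and 2, where 2085 and 2384 of all 19839 genes stood out. With DESeq2 there were 0 and 1, against 3.96% and 5.27% of all genes. Without Control replicate 3 the numbers were 2 for SNP100 (5.16% of all genes), 7 for SNP50 (18.9%), 15 for MSNP (29.5%) and 6 for HMSNP (8.66%). The HMSNP count moved under other settings too: it was 6 with DESeq2 (15.1% of all genes), 15 without Control replicate 2 (25.2%) and 0 of 29 in the fit on 6 libraries (0.439%).

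**Figure D4:**
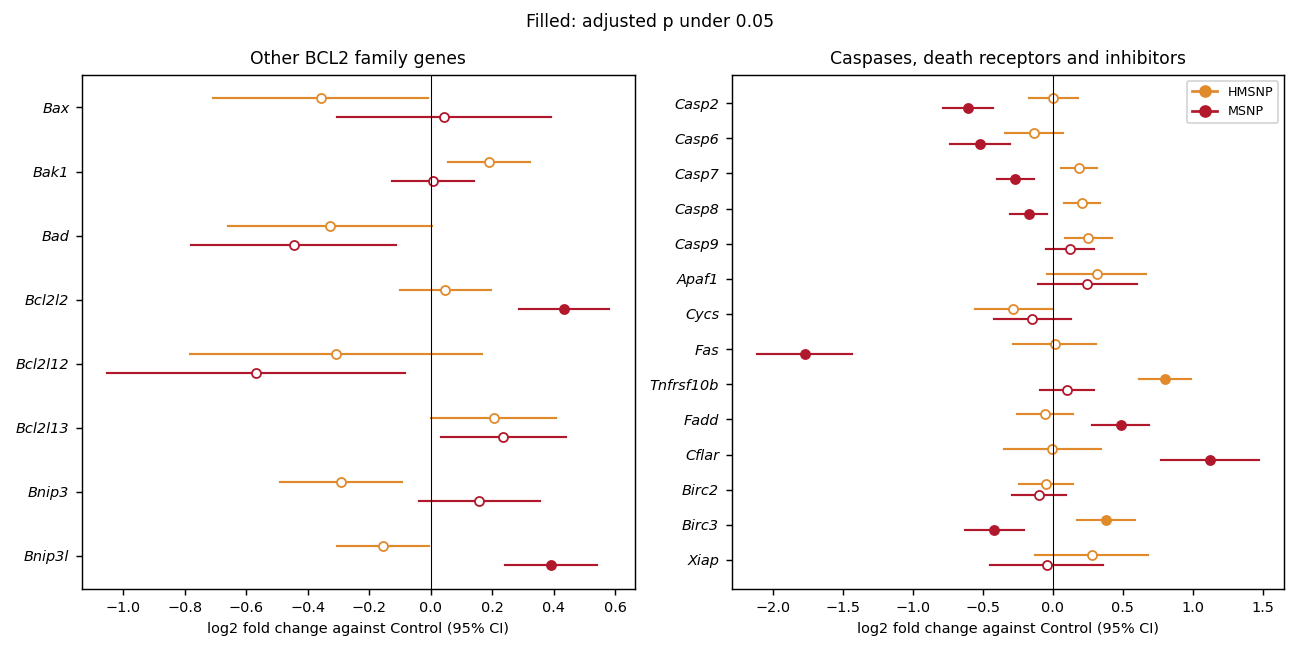
Log2 fold change against nontreated controls, with 95% confidence intervals, for HMSNP and MSNP in other BCL2 family genes (left) and in caspases, death receptors, adaptors and inhibitors (right); filled points passed the edgeR test at an adjusted p under 0.05. Fas (-1.77) and Cflar (1.12) stand out for MSNP, and Tnfrsf10b (0.80) for HMSNP.

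Genes with a pattern like that of Bmf were ranked by Pearson correlation of log2 CPM over the 15 libraries among 11539 genes with a mean of at least 1 CPM. The libraries share groups and depth, and 271 genes exceeded a correlation of 0.9, so the measure describes the order of groups. The 10 nearest were Ermap (0.996), Pald1 (0.995), Pmepa1, C130050O18Rik, Sema4a, Kifc3, Notch4, Tmem119, Spsb1 and Marveld1 (0.989). Pmepa1, an inhibitor of TGF-beta signaling, had mean levels of 234 CPM in controls, 180 under SNP100, 179 under SNP50, 121 under HMSNP and 14.7 under MSNP. The receptor gene Notch4 went from 7.48 CPM in controls to 4.36 under HMSNP and 0.948 under MSNP. Without the MSNP libraries 2 of these 10, Ermap and Pald1, were still among the 10 nearest genes, so the ranking leans on the MSNP-treated group.

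**Figure D5:**
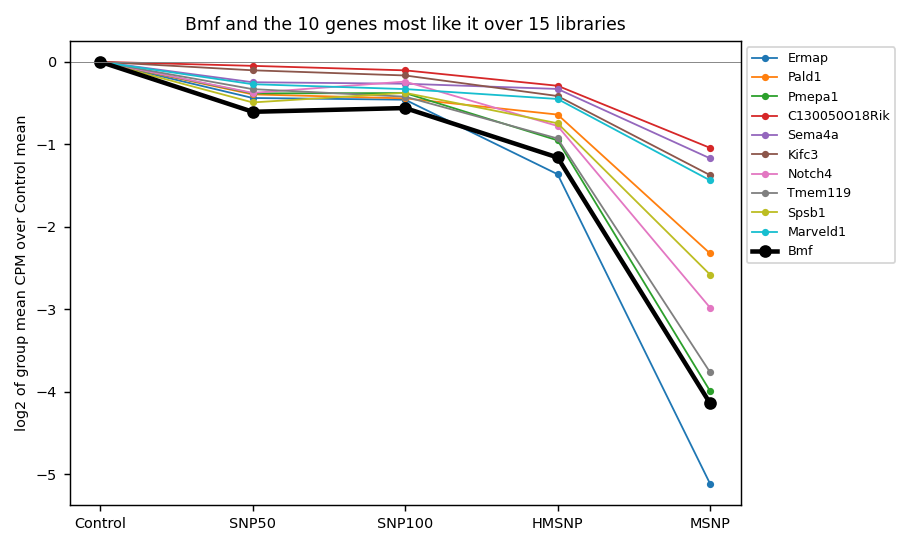
Log2 ratio of the group mean CPM to the mean of nontreated controls for Bmf (thick line) and the 10 genes most like it over 15 libraries, with lines joining the 5 groups as a guide. All fall furthest under MSNP, and Ermap falls further than Bmf.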

How the data were processed

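Per the labels and the study's methods, poly(A) RNA of RAW 264.7 cells was made into directional libraries and sequenced with paired reads of 150 bases. The submitters' processing notes name cutadapt 1.16, STAR 2.7.9a, featureCounts 1.6.3 and GRCm39. The authors deposited raw read counts per Ensembl gene; the annotation release and the strand setting are not given in the sources used here. The 10 members and the gene lists were chosen with earlier results of these data known.

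Genes with at least 10 counts summed over 15 libraries (19839 of 57186) were scaled by TMM and tested with edgeR 4.0.16 (R 4.3.3) by quasi-likelihood in 1 model of all groups, with Benjamini-Hochberg adjustment over all genes tested and a threshold of 0.05; adjusted p-values in the text are from this fit unless another is named. CPM are TMM-scaled. The confidence intervals are 95% intervals. Symbols, positions and the 300-base windows came from GRCm39 with GENCODE release M39. The named genes of a list were up to 6 per comparison with controls by size of change among those that passed; Dynll1 and the genes that did not pass were named for their role after their values were seen. A further gene of the lists is not reported here by name. Labels do not say that replicates were separate cultures, so p-values measure the spread between these libraries, which may be technical. Total counts of 29369934 to 42617812 per library set the precision; intervals of counts cover counting error only. Alternatives were DESeq2 1.42.0, other filters and scalings, a fit on 6 libraries, a length offset (on exonic length), a replicate block and leaving out each library. The procedure was tested on simulated data in which all groups had the same spread and no library had a length trend. That test does not cover the uneven control libraries seen here.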

Additional observations from a re-analysis of the deposited data

Results flagged for a closer look

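For 6 members the change against nontreated controls differed between the 2 mesoporous particles, by the test of the difference itself in the 15-library fit. The difference, HMSNP minus MSNP on the log2 scale, was 2.97 for Bmf and 0.43 for Bcl2l11. It was -1.13 for Bcl2l1, -0.57 for Mcl1, -0.69 for Bcl2a1b and -0.49 for Bcl2a1d. Because both changes are taken against the same controls, the control libraries drop out of the size of these differences, but they enter the shared spread that the test uses. With Control replicate 3 left out, 8 members passed, with Bid and Bbc3 added, against 33.9% of all genes instead of 20.2%. Library names carry a different number prefix for each group, and whatever it marks and the particle cannot be told apart.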

How the results depend on the processing

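Bmf kept its direction and its call in all 23 alternatives for MSNP and HMSNP against controls and for HMSNP against MSNP, in 16 of 23 for SNP100 and in 19 of 23 for SNP50. Bcl2l1, Mcl1, Pmaip1 and Bid kept theirs for MSNP in all 23. The number of members called changed as follows. In the fit on the 6 libraries of a comparison it was 0 for SNP100 (0% of all genes) and 0 for SNP50 (0.00574%) against controls. For HMSNP against SNP100 it was 6 (26.8%). For MSNP against controls it was 9 with DESeq2 (29.7% of all genes), 9 with filterByExpr (33.1%), 9 with a length offset (26%) and 5 on 6 libraries (13%). For MSNP against SNP100 it was 8 with DESeq2 (23.8%), 8 with a length offset (20.7%) and 9 on 6 libraries (40.9%). Leaving out single libraries gave 0 to 3 for SNP100 (0.29% to 5.16% of all genes) and 0 to 5 for SNP50 (0.443% to 18.9%). It gave 2 to 4 for HMSNP (2.51% to 25.2%) and 1 to 6 for HMSNP against SNP100 (2.55% to 20.4%). A length offset without Control replicate 3, chosen after seeing the data, gave 2 for SNP100 (5.92% of all genes) and 4 for SNP50 (17.8%). The same setting gave 5 for HMSNP (10.3%) and 1 for SNP50 against SNP100 (0.999%). With a replicate block 1 member was called for SNP100 (0.716% of all genes), 1 for SNP50 (0.907%), 6 for MSNP (22.1%) and 3 for HMSNP (4.46%) against controls. That block gave 2 for HMSNP against SNP100 (3.99%) and 5 for HMSNP against MSNP (19.2%). Same-numbered libraries deviated together in only 10 of 30 pairs (correlation over 0.1), so the numbers were not taken as pairs. The causes were not tested.

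Without Control replicate 3 the direction turned and passed for Bax (0.24) and Cycs (0.20) under SNP100, Bad (0.17) and Vdac2 (0.15) under SNP50, Vdac3 (0.12) under MSNP and Dynll1 (0.22) under HMSNP; leaving out single libraries gave ranges of -0.26 to 0.24, -0.16 to 0.20, -0.29 to 0.17, -0.12 to 0.15, -0.11 to 0.12 and -0.21 to 0.22 in that order. With the length offset as well the direction turned for Bax (0.16) and Cycs (0.18) under SNP100 and Vdac2 (0.16) and Vdac3 (0.17) under SNP50. In that setting it also turned for Usp9x (-0.37) under MSNP and for Mitf (-0.17), Dynll1 (0.22) and Bcl2a1d (0.30) under HMSNP. Bcl2a1d turned under HMSNP with the offset alone too (0.26). Of the 10 genes most like Bmf, 4 were shared with a Spearman ranking and 2 with a ranking without MSNP. Genes at a few reads, such as Bcl2l15, are limited by depth.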

Other observations

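Of 26 genes that bind the members' proteins or are known to regulate the members, 25 were tested, and 12 passed for MSNP (8 higher, 4 lower), 4 for HMSNP, 3 for SNP100 and 4 for SNP50, where 22.8%, 5.16%, 0.912% and 1.41% of all genes passed. Without Control replicate 3 these numbers were 15, 8, 7 and 12, against 29.5%, 8.66%, 5.16% and 18.9% of all genes. Ddit3 (CHOP), a stress-induced transcription factor, rose under MSNP from 9.73 CPM ± 0.545 to 51.2 ± 2.31 (SD, n = 3 each, log2 fold change 2.39, adjusted p = 1.38e-10) and fell under HMSNP to 5.97 ± 0.414 (-0.70, adjusted p = 0.000646). Under SNP100 and SNP50 it rose by 0.65 and 0.61 (adjusted p = 0.00387 and 0.00573). In the fit on the 6 libraries of a comparison the Ddit3 calls were lost for HMSNP, SNP100 and SNP50 (adjusted p = 0.0732, 0.352 and 0.487). Atf4, which lies upstream of Ddit3 in the integrated stress response, was higher under MSNP (0.44, adjusted p = 0.00162, and 0.0598 on 6 libraries) and lower under HMSNP (-0.89, adjusted p = 2.21e-05), and the particles differed for Ddit3 (HMSNP minus MSNP -3.10, adjusted p = 2.42e-11) and for Atf4 (-1.33, adjusted p = 2.86e-08).

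The kinase gene Pim1 and the transcription factor gene Jun rose under both nonporous particles and under MSNP, and on 6 libraries the calls for SNP100 and SNP50 were lost (adjusted p = 0.369 and 0.456 for Pim1, 0.492 and 0.415 for Jun). Jun went from 57.9 CPM ± 0.929 in controls to 159 ± 3.36 under MSNP (1.46, adjusted p = 1.94e-10), and Pim1 from 17.3 ± 1.09 to 45.3 ± 0.985 (1.39, adjusted p = 1.02e-09). Fbxw7, a ubiquitin ligase subunit that acts on MCL1 protein, rose 2.03-fold under MSNP (1.02, adjusted p = 4.21e-08). Under the same particle Mitf (-1.43, adjusted p = 9.57e-07) and Myc (-0.57, adjusted p = 0.00865) fell. Tfe3, a relative of Mitf, was at -0.25 under SNP50 (adjusted p = 0.0497), a call lost in 18 of 23 alternatives (adjusted p = 0.0527 to 0.729). Tfe3 also passed as lower under MSNP against controls, both in the 15-library fit and in the fit on 6 libraries. Egr1 rose under HMSNP (0.90, adjusted p = 0.0037). Foxo3, a factor known to act on Bcl2l11, was higher under MSNP (0.37, adjusted p = 0.0454) and HMSNP (0.48, adjusted p = 0.0388), calls lost in 15 of 23 alternatives for MSNP (adjusted p = 0.0508 to 0.234) and 14 of 23 for HMSNP (0.0538 to 0.401).

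The 2 dynein light chains that hold BIM and BMF in the cytoskeleton were abundant in every group. Dynll1 was at 191 CPM ± 64.0 in controls and 135 ± 1.94 under MSNP (SD, n = 3 each, -0.51, adjusted p = 0.0296), a call lost in 4 of 23 alternatives (adjusted p = 0.0684 to 0.194), with Control replicate 3 the highest control, and Dynll2 at 155 ± 18.4 and 172 ± 4.12 (0.15, adjusted p = 0.191).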
